A study of Mus musculus with 6 samples.

Results

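The genes Cd163l1, 5830411N06Rik, Blk, Sox13 and Maf belong to the program described for interleukin-17-producing gamma-delta T cells. They are 5 of the 28048 genes counted in each library, and each of the 5 was detected in at least 15 of the 60671 cells kept, as were 13599 genes in all. The 5 genes were chosen by name with their levels in these libraries already known. Their levels, their ratios between libraries and their levels in cells with and without a Cd3 transcript are therefore given as descriptions, and none was tested.

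Progenitors grown from bone marrow on OP9-DL1 cells, a stromal line that presents the Notch ligand DL1, were sorted by surface phenotype and by a YFP reporter of Bcl11b. All starting populations were CD44+. DN1 cells lacked CD25, DN2a cells carried CD25 without the Bcl11b reporter, and DN2b cells carried both and had thus already switched Bcl11b on when they were sorted. Each was placed on OP9-DL1 cells again for 4 days, with cytokines that the study's methods list for generating NK and innate lymphoid cells. The cells were then profiled by sci-RNA-seq3. This assay labels the RNA of fixed cells or nuclei by rounds of well-specific barcodes and counts transcripts as unique molecular identifiers (UMIs). Both genotypes were C57BL/6 mice with the YFP reporter on both Bcl11b alleles, and ΔTE mice also lacked the timing enhancer, a distal Bcl11b enhancer, on both alleles. Bone marrow came from mice 2 to 4 months old, both sexes were used, and progenitors of 6 to 8 mice were pooled per genotype. The deletion was present in every cell of the ΔTE animals, and stromal cells could be carried over into the libraries. Each of the 6 conditions was 1 library from 1 pooled culture, without replicates. The 3 reverse-transcription wells of a library are technical parts of that culture.

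Gamma-delta T cells arise in the thymus from the same early progenitors as alpha-beta T cells and carry a receptor built from gamma and delta chains. The subset that makes interleukin-17 is programmed during development by transcription factors that include Sox13 and Maf, and Blk, a Src family kinase, is known to favour this subset. Cd163l1 (also called Scart1) and 5830411N06Rik (also called Scart2) encode surface proteins with scavenger receptor cysteine-rich domains that are used as markers of such cells. Bcl11b, the factor whose timing the deletion alters, is a transcription factor of T-lineage commitment.

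The libraries held 8007395 to 14555100 UMIs in all barcodes, and 3401 to 19489 cells were kept per library at a median of 386 to 485 UMIs per cell. No barcode was shared between libraries. The WT DN2a library stood apart in its mitochondrial share, with a median of 13.3% of UMIs per cell against 20.9% to 23.9% in the other 5 libraries. Bcl11b, whose enhancer was deleted, was at 235, 535 and 856 UMIs per 1000000 UMIs (CPM) in the WT libraries of the DN1, DN2a and DN2b starts and at 89.4, 256 and 539.6 CPM in the ΔTE libraries. The 8 stromal markers summed to 253 to 1693 CPM and the 12 myeloid markers to 14.0 to 294 CPM. Of 8 B cell markers, Ms4a1 was at 0 and the sum was 9.82 to 18.5 CPM, and the 6 of 9 alpha-beta T cell markers analysed here summed to 10.9 to 45.5 CPM with Cd8b1 at 0. The 7 progenitor markers summed to 294 to 769 CPM.

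The label of the group was checked against defining genes of gamma-delta T cells. Genes of the gamma-delta receptor (17 were listed, of which 7 were markers) were not analysed here. Among the 14 listed genes of the interleukin-17 effector program, Il17a, the cytokine itself, had 0 UMIs in 60671 cells, which allows a share of up to 0.00494% of cells with a UMI. The genes Il17f, Il23r and Ccr6 had 6, 8 and 13 UMIs in all, and these low counts were singled out after their values were seen. At least 20 UMIs were found for 9 of the 14 genes, among them Il7r (3630), Ccr2 (3178), Rora (2108), Il1r1 (514) and Il18r1 (402). With no receptor gene analysed and no UMI of the cytokine, the cells that hold the 5 transcripts are given no cell type name, and the genes are called by their symbols.

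Transcripts of the 5 genes were sparse. Cd163l1 gave 2065 UMIs in 1634 cells (2.69% of all cells kept), 5830411N06Rik 1851 UMIs in 1505 cells (2.48%), Blk 333 UMIs in 296 cells (0.488%), Sox13 897 UMIs in 787 cells (1.30%) and Maf 1798 UMIs in 1485 cells (2.45%). Between 79.7% and 89.2% of the cells with a UMI of a gene held exactly 1, and the highest counts in a single cell were 3 to 6 UMIs. A higher level in a library may thus reflect more cells with the transcript or more transcript per cell, and these cannot be told apart. Intervals in parentheses are 95% exact intervals and cover counting error only, not the spread between wells or between cultures. Wells of 1 library could differ beyond such intervals. For 5830411N06Rik in ΔTE DN2a, 1 well read 53.6 CPM (45.6 to 62.6) and another 34.3 CPM (26.3 to 44.0).

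The scavenger receptor genes Cd163l1 and 5830411N06Rik are neighbours. In the GENCODE M21 annotation of GRCm38, Cd163l1 (ENSMUSG00000025461) lies on the plus strand at chr7:140218267-140231145 and 5830411N06Rik (ENSMUSG00000054672) follows on the same strand at chr7:140247284-140300736. The gap between them is 16138 bases and holds 0 annotated genes. Their transcripts are related, since the longest alignment between Cd163l1-201 (3454 bases) and 5830411N06Rik-203 (3342 bases) ran over 2291 bases at 73.8% identity. They shared 0 words of 30 bases, so that no stretch of this length was identical in both. The 250 bases before the RefSeq start of each gene (GRCm38.p6, plus strand, chr7:140218017-140218266 and chr7:140247051-140247300) are printed because the levels of these neighbours differed in opposite directions between the genotypes. Capitals mark matches, on either strand, to the letters of 4 motifs. A half-site of Maf factors was written TGCTGA. The core that Sox factors prefer was written ACAAT. For Runx factors the letters searched were TGTGGT, and for GATA factors they were AGATAA.
Cd163l1: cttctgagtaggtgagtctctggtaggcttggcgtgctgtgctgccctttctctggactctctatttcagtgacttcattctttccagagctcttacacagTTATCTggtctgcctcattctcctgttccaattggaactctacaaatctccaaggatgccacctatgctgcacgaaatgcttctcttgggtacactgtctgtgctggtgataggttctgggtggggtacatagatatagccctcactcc
5830411N06Rik: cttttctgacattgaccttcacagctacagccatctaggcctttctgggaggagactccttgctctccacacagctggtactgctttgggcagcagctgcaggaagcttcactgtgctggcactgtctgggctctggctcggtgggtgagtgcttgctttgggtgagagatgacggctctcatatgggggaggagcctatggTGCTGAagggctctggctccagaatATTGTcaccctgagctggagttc

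The Cd163l1 window held 1 match, to the GATA letters on the minus strand, from 149 to 144 bases before the start. The 5830411N06Rik window held the Maf half-site on the plus strand from 48 to 43 bases before the start and the Sox letters on the minus strand from 23 to 19 bases before it, and no 2 of the marked matches overlapped. Over 27025 promoters of the same length, 15.8% held the Maf half-site, 28.2% the Sox letters, 14.2% the Runx letters and 10.2% the GATA letters. The E-box CANNTG, held by 66.1% of promoters and not capitalised, matched 1 time in the Cd163l1 window and 3 times in the 5830411N06Rik window. Of the 5 members, 3 were matched by symbol to the RefSeq promoter table, and the Sox13 window held 0 matches to any of these 5 motifs. A match is a description of the letters and not a binding site.

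Cd163l1 was the member with the largest difference between genotypes among the 5 in the DN2a and DN2b starts. Its level was 8.51, 41.6 and 127 CPM in WT libraries of the DN1, DN2a and DN2b starts and 13.2, 91.5 and 371 CPM in the ΔTE libraries. In each start the ΔTE library was the higher one, and the 3 wells of ΔTE all lay above the 3 wells of WT. For the DN2b start, the WT wells read 116 to 131 CPM and the ΔTE wells 354 to 386 CPM. On the log2 scale, the ratio of ΔTE to WT was 0.64 (0.11 to 1.17) in the DN1 start, 1.14 (0.95 to 1.33) in the DN2a start and 1.55 (1.36 to 1.74) in the DN2b start. The median ratio of all genes with at least 20 UMIs in the 2 libraries was -0.0041, -0.15 and -0.02 in the same order. Without the mitochondrial limit, which the WT DN2a library met most often, the DN2a value was 0.92. In the DN1 start, where the counts were 51 and 78 UMIs, the direction was lost when cells were kept only up to 20% mitochondrial UMIs (-0.027, -1.03 to 0.97).

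5830411N06Rik did not share this direction. Its level was 6.84, 54.3 and 245 CPM in the WT libraries of the DN1, DN2a and DN2b starts and 4.75, 44.2 and 200.5 CPM in the ΔTE libraries. The ΔTE library was the lower one in each start, and the wells of the genotypes overlapped in each. The ratio of ΔTE to WT was -0.53 (-1.27 to 0.20), -0.30 (-0.52 to -0.08) and -0.29 (-0.48 to -0.10) on the log2 scale. These ratios are not set relative to the median of all genes, which was itself -0.15 in the DN2a start. There, 27.3% of genes had a lower ratio than 5830411N06Rik. With at most 20% mitochondrial UMIs the sign in the DN1 start was the opposite one, at 1.54 (0.11 to 3.18). Without the mitochondrial limit the ratio in the DN2a start was -0.58, and without well 1 of the ΔTE library it was -0.60.

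Blk encodes a Src family kinase and lies on the minus strand at chr14:63372836-63417037 (GRCm38, ENSMUSG00000014453). It had the lowest counts of the 5 genes, at 11, 88 and 50 UMIs in WT and 17, 114 and 53 UMIs in ΔTE libraries of the DN1, DN2a and DN2b starts. In CPM these were levels of 1.84, 9.73 and 18.3 for WT and of 2.88, 18.0 and 30.9 for ΔTE. The ΔTE library was higher in each start, and the wells stood apart in the DN2a start (WT wells at 7.67 to 12.9 CPM, ΔTE wells at 16.6 to 19.3 CPM). Ratios of ΔTE to WT were 0.65 (-0.53 to 1.89), 0.89 (0.48 to 1.31) and 0.75 (0.17 to 1.34) on the log2 scale, so that the DN1 difference was not detectable at this depth.

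Sox13, a SoxD transcription factor, lies on the minus strand at chr1:133382303-133424377 (GRCm38, ENSMUSG00000070643). Levels were 20.5, 29.8 and 68.5 CPM in the WT libraries and 14.6, 23.0 and 50.7 CPM in the ΔTE libraries, in the order DN1, DN2a and DN2b. Each ΔTE library was lower than its WT counterpart, with overlapping wells in each start. Relative to WT, ΔTE stood at -0.49 (-0.91 to -0.08), -0.37 (-0.68 to -0.08) and -0.43 (-0.82 to -0.06) on the log2 scale. Beside the DN2a value, the median of all genes was -0.15, and 21.2% of genes had a lower ratio than Sox13. Leaving out well 1 of the ΔTE DN2a library moved the middle value to -0.69.

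Maf, a bZIP transcription factor of the large Maf group, lies on the minus strand at chr8:115682942-115707794 (GRCm38, ENSMUSG00000055435). The annotation places Gm15655, not analysed here, over part of it. Maf was at 25.9, 57.6 and 96.0 CPM in WT and at 20.7, 66.3 and 186 CPM in ΔTE libraries of the DN1, DN2a and DN2b starts. The genotypes were close in the DN1 and DN2a starts, with overlapping wells, and apart in the DN2b start, where WT wells read 93.2 to 98.8 CPM and ΔTE wells 154 to 207 CPM. Log2 ratios of ΔTE to WT were -0.32 (-0.68 to 0.03), 0.20 (0.01 to 0.39) and 0.95 (0.71 to 1.20).

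Maf also depended on which cells were summed. Cells with at least 3 UMIs of stromal markers were 4.62% of all cells and held 25.3% of the Maf UMIs, at 233 CPM (212 to 255). The stromal markers summed to 1693 CPM in the WT DN2a library and 1002 CPM in the ΔTE DN2a library. Without the stromal-marker cells the Maf ratio of the DN2a start was 0.82 (0.57 to 1.06), and that of the DN2b start was 0.99. The DN2b ratio was 0.48 with no mitochondrial limit as well as with at most 20% mitochondrial UMIs.

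**Figure D1:**
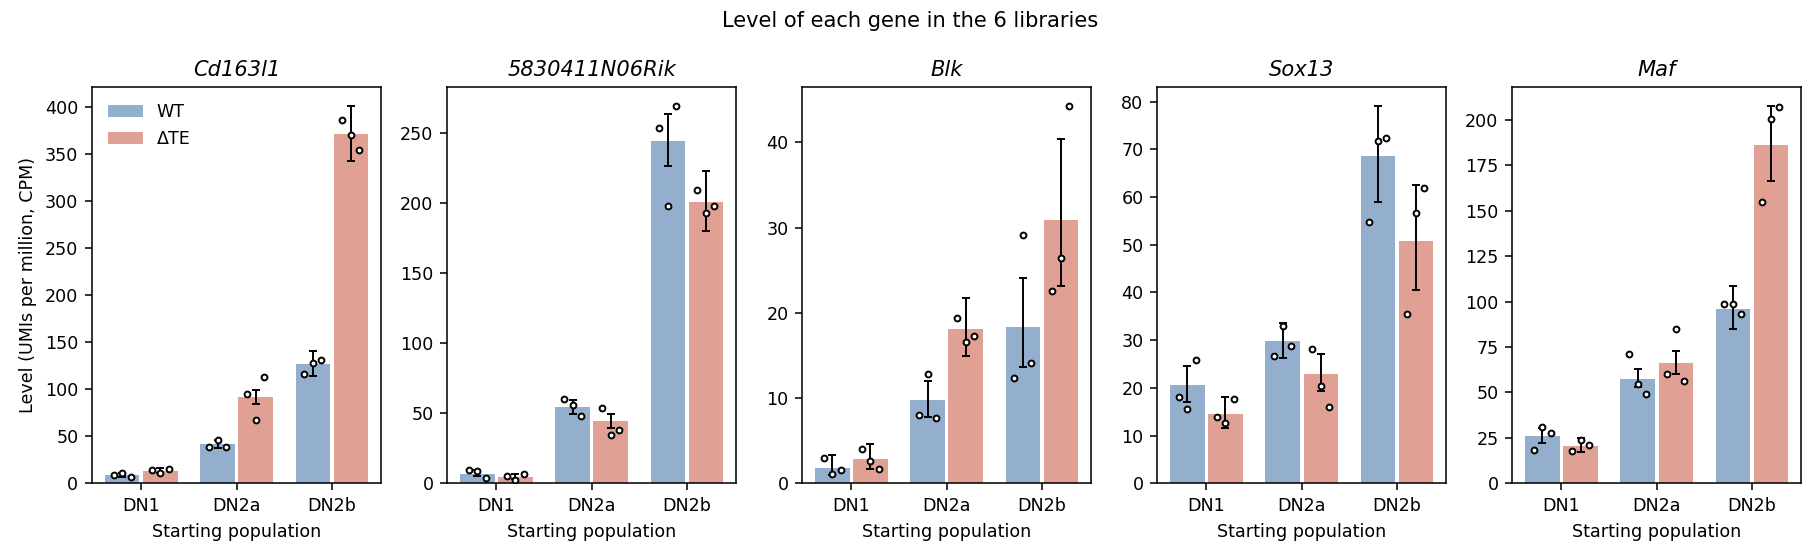
Level of each gene (CPM, linear axis from 0) by starting population, with WT bars in blue and ΔTE bars in red, each bar 1 library. Error bars are 95% exact Poisson intervals and points are the 3 reverse-transcription wells. Each gene is highest in the DN2b libraries, Cd163l1 reaches 371 CPM in the ΔTE and 127 CPM in the WT DN2b library, and 5830411N06Rik and Sox13 are lower in ΔTE than in WT in each start.

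The counts of members past 2-fold were read beside all genes with at least 20 UMIs in the pair of libraries, and all 5 members met this minimum in each start. Between genotypes, 0 of 5 members were past 2-fold in the DN1 start, where 2.52% of 11450 genes were. In the DN2a start, 1 of 5 was past 2-fold (Cd163l1, 2.20-fold) against 5.09% of 12214 genes, and in the DN2b start 1 of 5 (Cd163l1, 2.92-fold) against 5.38% of 10073 genes. The wells of the genotypes did not overlap for 1 of 5 members in the DN1 start (Cd163l1), for 2 in the DN2a start (Cd163l1 and Blk) and for 2 in the DN2b start (Cd163l1 and Maf). Among all genes, wells did not overlap for 16.5%, 19.1% and 17% in the same order. Since the members were chosen with these ratios known, the counts are a description only. In the DN2b start, 99.5% of genes had a lower ratio than Cd163l1, 97.9% a lower one than Maf, 96.6% a lower one than Blk, 21.1% a lower one than 5830411N06Rik and 13.5% a lower one than Sox13.

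**Figure D2:**
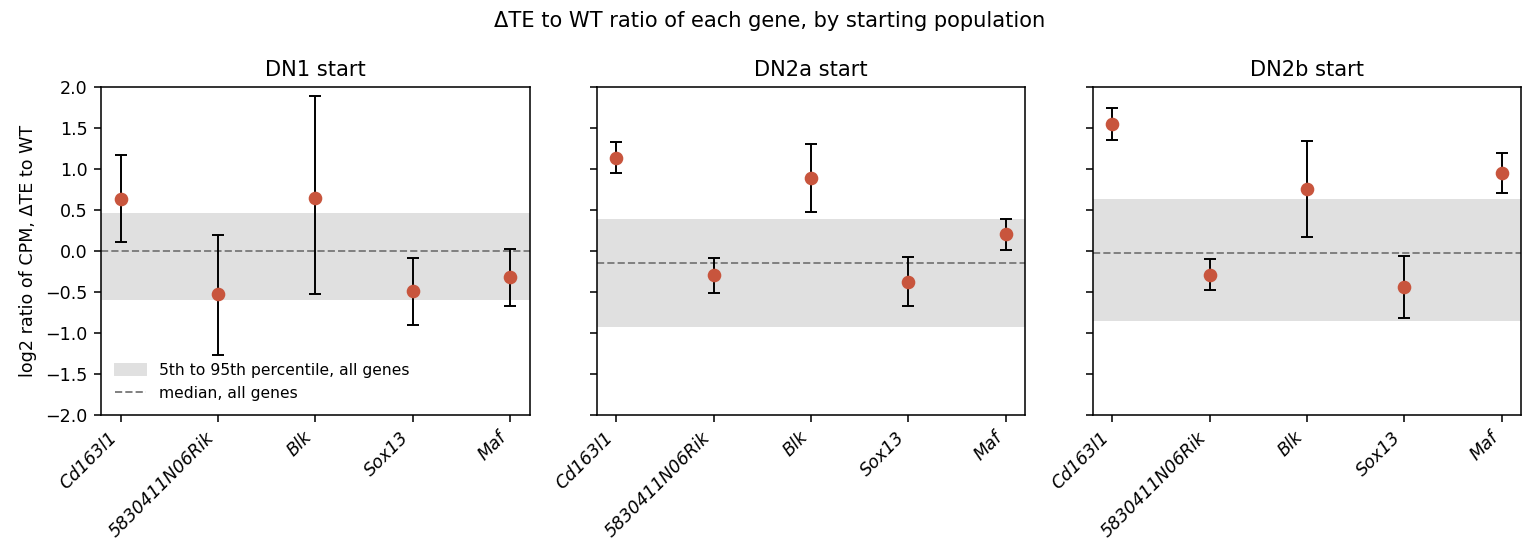
Ratio of ΔTE to WT on the log2 scale for each gene, in 1 panel per starting population. Points are ratios of library sums, bars are 95% exact intervals for counting error, the dashed line is the median of all genes and the grey band spans their 5th to 95th percentile. Cd163l1 (0.64, 1.14 and 1.55) and Blk (0.65, 0.89 and 0.75) lie above the band in each panel, whereas 5830411N06Rik and Sox13 lie inside it in each.

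The share of the receptor transcripts that came from Cd163l1 summarised the opposite directions of the neighbouring genes, a measure chosen after their values were seen. It was read between libraries only, since counts of different genes were not scaled to length. Of the UMIs of both genes together, Cd163l1 took 55.4% (44.7 to 65.8), 43.4% (40.0 to 46.7) and 34.1% (31.2 to 37.1) in WT libraries of the DN1, DN2a and DN2b starts. In ΔTE libraries it took 73.6% (64.1 to 81.7), 67.4% (64.2 to 70.6) and 64.9% (61.8 to 67.9). The share was lower in each later start of both genotypes. The intervals of the DN1 and DN2a starts overlapped in both genotypes, and those of the DN2a and DN2b starts overlapped in ΔTE and not in WT. Between genotypes, the wells did not overlap in any start. In the DN2b start, WT wells spanned 31.4% to 39.2% and ΔTE wells 64.1% to 65.8%. With at most 20% mitochondrial UMIs the order of the DN1 start was the opposite one, at 76.9% in WT and 52.9% in ΔTE, whereas the ΔTE DN2b share was 61.8%.

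The balance was also read in cells with and without other transcripts. Within the DN2b start, cells with a UMI of Cd3d, Cd3e or Cd3g, the subunits that carry T cell receptors to the surface, had a Cd163l1 share of 27.7% (23.0 to 32.8) if WT and of 55.6% (48.5 to 62.5) if ΔTE. Cells without one had 37.4% (33.7 to 41.2) and 67.4% (63.9 to 70.6). In cells of the DN2b start with a Bcl11b UMI the WT share was 32.6% (28.1 to 37.4) and the ΔTE share 57.4% (50.6 to 64.0), and in cells without one 35.1% and 67.1%. For cells with a UMI of Zbtb16, which encodes the innate lymphoid factor PLZF, the WT share was 36.0% (28.0 to 44.7) and the ΔTE share 76.0% (69.4 to 81.8), against 33.8% and 62.1% in cells without one. The ΔTE share was thus the higher one in each of these 6 sets of DN2b cells, and the intervals of the genotypes did not overlap in any of them.

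**Figure D3:**
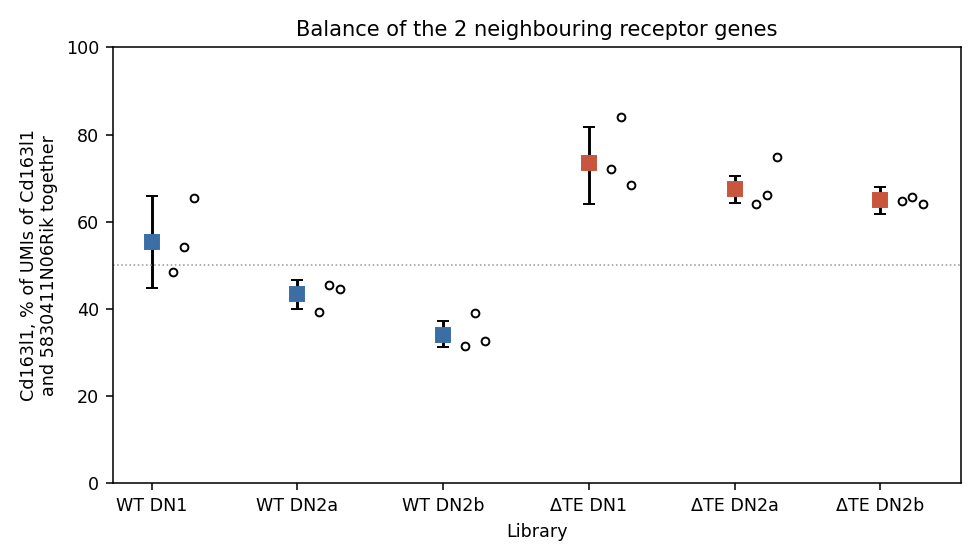
Percent of the UMIs of Cd163l1 and 5830411N06Rik together that belonged to Cd163l1, for each of the 6 libraries. Squares are whole libraries (WT blue, ΔTE red) with 95% exact binomial intervals, open points are the 3 wells, and the dotted line marks 50%. WT libraries run from 55.4% to 34.1% and ΔTE libraries from 73.6% to 64.9%.

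Along the starting populations, all 5 genes were higher in later starts of both genotypes. From DN1 to DN2b, the fold was 14.9 for Cd163l1, 35.7 for 5830411N06Rik, 9.97 for Blk, 3.34 for Sox13 and 3.71 for Maf in WT. In ΔTE it was 28.0, 42.2, 10.7, 3.47 and 8.98 in the same order of genes. All 5 were thus past 2-fold higher in both genotypes, where 3.91% of 11120 genes were in WT and 4.04% of 10807 genes in ΔTE. The steps differed among the genes, since Sox13 was 1.45-fold higher in DN2a than in DN1 and 2.30-fold higher in DN2b than in DN2a in WT, whereas Blk was 5.30-fold and then 1.88-fold higher. 5830411N06Rik was 7.93-fold higher at the first step and 4.51-fold at the second in WT, and 9.30-fold and 4.54-fold in ΔTE. Maf was 2.23-fold and 1.67-fold higher in WT and 3.21-fold and 2.80-fold in ΔTE. On the log2 scale the Maf steps of WT were 1.16 and 0.74, and without the stromal-marker cells they were 0.49 and 1.64, so that the second step was then the larger one. Without the mitochondrial limit the first Maf step was 0.42 in WT and 0.79 in ΔTE. With at most 20% mitochondrial UMIs the first step of 5830411N06Rik was 4.13 in WT and 2.41 in ΔTE, against 2.99 and 3.22 with the limit used.

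Shares of cells with a transcript were compared after each cell was thinned to 300 UMIs, which left 51184 cells and left out 9487 shallower ones. In the DN2b start, Cd163l1 was then found in 2.88% (2.40 to 3.41) of the WT cells and in 9.66% (8.62 to 10.8) of those from ΔTE, against 5.27% and 14.1% before thinning. For 5830411N06Rik the shares were 6.53% (5.82 to 7.30) and 5.27% (4.49 to 6.14) in the same start. Maf was in 2.70% (2.24 to 3.22) and 4.80% (4.05 to 5.63) of these cells, Sox13 in 1.90% (1.52 to 2.35) and 1.16% (0.802 to 1.61), and Blk in 0.567% (0.367 to 0.835) and 0.885% (0.579 to 1.29). Each of these differences had the direction of the CPM. Stromal-marker cells, taken over all libraries as cells that should lack T-lineage transcripts, gave 0.232% for Cd163l1, 0.426% for 5830411N06Rik, 0.0387% for Blk and 0.193% for Sox13 after thinning, at a median of 571 UMIs before it. Those of the DN2b start alone were few, at 140 cells in WT and 41 in ΔTE. In them 5830411N06Rik was at 1.43% (0.17 to 5.07) in WT and 2.44% (0.06 to 12.9) in ΔTE. Cd163l1, Blk and Sox13 were at 0 in both, with upper bounds of 2.60% in WT and 8.60% in ΔTE. For Maf the share in stromal-marker cells of all libraries was 6.69%, above that in all cells (1.53%), so that stromal-marker cells give no background for this gene.

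The members were next read in cells with a UMI of Cd3d, Cd3e or Cd3g, which were 5019 of 60671 cells. They were 3.17%, 11.1% and 21.9% of cells in the WT libraries and 1.31%, 5.74% and 18.2% in the ΔTE libraries of the DN1, DN2a and DN2b starts. Over all libraries the levels in cells with and without a Cd3 UMI were 130.5 and 58.7 CPM for Cd163l1, 192 and 45.3 CPM for 5830411N06Rik, 65.6 and 24.6 CPM for Sox13, 16.1 and 9.95 CPM for Blk and 46.7 and 57.7 CPM for Maf. By this sum 3 of 5 members were past 2-fold higher in cells with Cd3, as were 1.68% of 13175 genes. The pooled values mix libraries that differ in both Cd3 and member levels, so the UMIs in Cd3 cells were also set against the number expected from the cells without Cd3 of the same libraries.

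Read within libraries, the members fell into different patterns. The log2 ratio of counted to expected UMIs was 1.07 (0.94 to 1.19) for 5830411N06Rik and 0.91 (0.69 to 1.11) for Sox13, and both were higher in Cd3 cells in 6 of 6 libraries. For Cd163l1 it was 0.38 (0.23 to 0.53), with 5 of 6 libraries in this direction and the ΔTE DN2b library in the other (344 CPM in cells with Cd3 and 377 CPM in cells without). Blk was at 0.17 (-0.28 to 0.59), with 3 libraries on each side. Maf was at -0.88 (-1.14 to -0.64) and lower in Cd3 cells in 5 of 6 libraries. In 1 of these, ΔTE DN1, 135 Cd3 cells held 0 Maf UMIs. The cells without Cd3 also hold stromal-marker cells, and this class had 53.9% of the Maf UMIs of the WT DN2a library. Against cells with neither Cd3 nor a marker class, Maf was higher in Cd3 cells of WT DN1 (32.7 and 16.3 CPM) and WT DN2a (41.9 and 30.3 CPM). It was lower in those of ΔTE DN2a (36.5 and 51.6 CPM), WT DN2b (55.0 and 101 CPM) and ΔTE DN2b (81.5 and 188 CPM).

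Cells with a Bcl11b UMI gave ratios of 0.29 (0.16 to 0.41) for Cd163l1, 0.53 (0.41 to 0.64) for 5830411N06Rik, 0.42 (0.09 to 0.74) for Blk, 0.75 (0.57 to 0.93) for Sox13 and -0.62 (-0.80 to -0.44) for Maf. The signs were those of the Cd3 split, and the value of 5830411N06Rik was lower than there, with intervals that did not overlap. Cells with a Zbtb16 UMI gave 0.76 (0.62 to 0.90) for Maf, 0.45 (0.31 to 0.58) for Cd163l1, 0.15 (-0.03 to 0.32) for 5830411N06Rik, -0.03 (-0.45 to 0.36) for Blk and -0.40 (-0.70 to -0.12) for Sox13. Sox13 and Maf thus stood on opposite sides of each of the 3 splits, with stromal-marker cells included. Cells with a member transcript were also deeper, and their median was 481 to 540 UMIs per cell against 432 to 434 in cells without one.

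Cells with a UMI of one member often held more of the others than expected. The same ratio is not given for all genes, so whether this sets the members apart from other genes was not tested. The cells behind the expected counts also include stromal-marker cells, in which the members other than Maf were low. Cells with Cd163l1 held Blk at a log2 ratio of 1.37 (0.89 to 1.81), Maf at 1.34 (1.14 to 1.54), Sox13 at 0.58 (0.17 to 0.97) and 5830411N06Rik at 0.50 (0.27 to 0.72). Cells with 5830411N06Rik held Blk at 1.02 (0.45 to 1.53), Maf at 0.97 (0.73 to 1.20) and Sox13 at 0.54 (0.14 to 0.92). The pair of Sox13 and Maf was below expectation, with intervals that included 0, at -0.17 (-0.71 to 0.33) in cells with Sox13 and -0.38 (-0.99 to 0.17) in cells with Maf. The interval also included 0 for Sox13 in cells with Blk (0.68, -0.38 to 1.56), for Blk in cells with Sox13 (0.76, -0.24 to 1.60) and for Cd163l1 in cells with Sox13 (0.39, -0.0019 to 0.76). Both receptor transcripts were seen in 134 cells, which were 8.20% of the cells with Cd163l1 and 8.90% of those with 5830411N06Rik, and Cd163l1 and Maf were seen together in 162 cells.

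**Figure D4:**
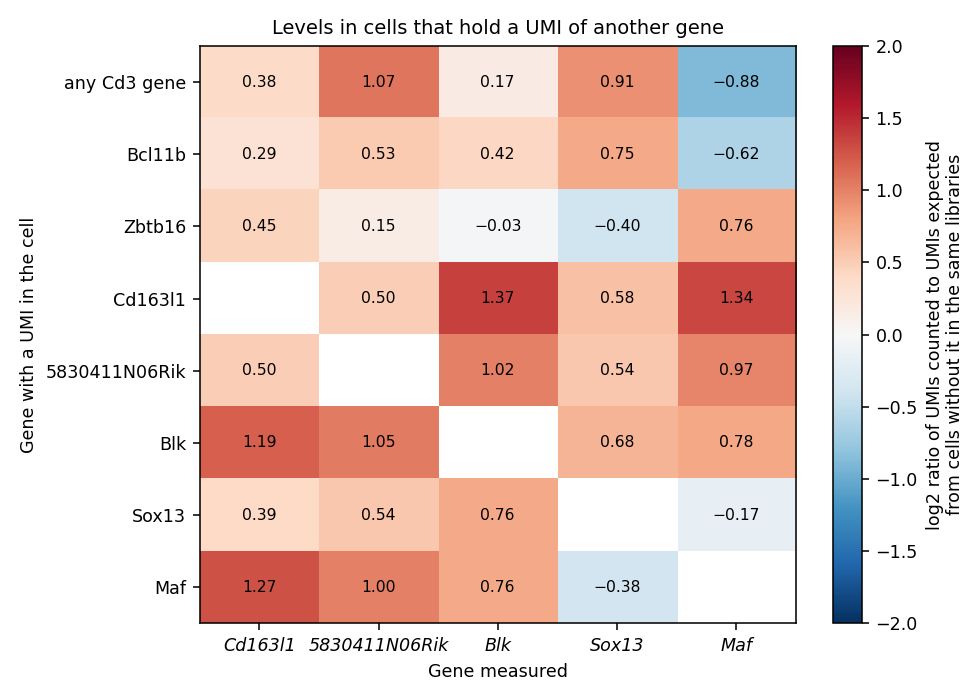
Each cell of the grid gives the log2 ratio of the UMIs of the gene named below, counted in cells that held a UMI of the gene named at the left, to the UMIs expected from the cells without it in the same libraries. Red is higher and blue is lower than expected, and white squares are a gene against itself. Maf is blue in cells with Cd3 (-0.88) and Bcl11b (-0.62) and red in cells with Zbtb16 (0.76) and Cd163l1 (1.34), and Sox13 has the opposite colours in cells with Cd3, Bcl11b and Zbtb16.

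Cells that carried markers of other lineages were described separately. In 927 cells with at least 2 UMIs of innate lymphoid or NK cell markers, Cd163l1 was at 217 CPM (182 to 256), 5830411N06Rik at 136 CPM (109 to 168), Maf at 204 CPM (171 to 242), Sox13 at 26.3 CPM and Blk at 4.64 CPM. These cells were 0.741% to 6.09% of a library, and the pooled levels mix libraries. Within libraries, Cd163l1 was higher in them than in cells with Cd3 in 3 of 6, 5830411N06Rik and Sox13 in 1 of 6 each and Maf in 6 of 6. Within these cells of the DN2b start, Cd163l1 was at 189.7 CPM for WT and 635 CPM for ΔTE, a log2 ratio of 1.74 (0.83 to 2.80). 5830411N06Rik was at 517 CPM for WT and 214 CPM for ΔTE, a log2 ratio of -1.27 (-2.06 to -0.49). In the DN2a start both genes were the higher ones in ΔTE in these cells. Cd163l1 was at 25.8 CPM for WT (3 UMIs) and 231 CPM for ΔTE, a log2 ratio of 3.16 (1.51 to 5.50). 5830411N06Rik was at 51.6 CPM for WT (6 UMIs) and 127 CPM for ΔTE, a log2 ratio of 1.30 (-0.05 to 2.89). In 216 cells with at least 3 UMIs of myeloid markers, Cd163l1, 5830411N06Rik, Blk and Sox13 were each at 0 UMIs (upper bound 26.3 CPM) and Maf was at 221 CPM (150.3 to 314). The 58 cells with at least 2 UMIs of alpha-beta T cell markers held 7 UMIs of Cd163l1, 4 of 5830411N06Rik, 2 of Sox13 and 0 of Blk and Maf. In stromal-marker cells Cd163l1 was at 10.3 CPM, 5830411N06Rik at 21.0 CPM, Sox13 at 5.13 CPM and Blk at 2.56 CPM.

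The 13 innate lymphoid or NK cell markers, all detected, summed to 135, 169 and 227 CPM in WT and to 156, 254 and 568 CPM in ΔTE libraries of the DN1, DN2a and DN2b starts. Their sum was thus higher in ΔTE in each start, as Cd163l1 was. Cells with neither a Cd3 UMI nor any of these marker classes numbered 51883, at a median of 425 UMIs. At this depth a cell without these UMIs may still express Cd3 or the markers, so the set is not free of such cells. In this set, the ΔTE level of Cd163l1 relative to WT was 1.07 (0.86 to 1.29) with a DN2a start on the log2 scale. With a DN2b start it was 1.54 (1.31 to 1.77). Blk was at 1.04 (0.59 to 1.50) and 0.83 (0.16 to 1.51) in these cells, and Maf at 0.76 (0.50 to 1.03) and 0.89 (0.61 to 1.17). 5830411N06Rik was at -0.36 (-0.62 to -0.10) and -0.19 (-0.44 to 0.05) in them, and Sox13 at -0.43 (-0.77 to -0.09) and -0.34 (-0.79 to 0.10). In cells with Cd3, Cd163l1 was at 1.34 (0.86 to 1.82) and 1.24 (0.84 to 1.65). Blk was at -0.37 (-2.16 to 1.11) and 0.57 (-0.86 to 1.94) in Cd3 cells, and Maf at -0.20 (-1.14 to 0.66) and 0.57 (-0.21 to 1.33), so that the ΔTE values of both were the lower ones in the DN2a start there, with intervals that included 0. 5830411N06Rik was at 0.05 (-0.44 to 0.51) and -0.46 (-0.83 to -0.11) in Cd3 cells, and Sox13 at 0.24 (-0.45 to 0.90) and -0.39 (-1.17 to 0.34).

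**Figure D5:**
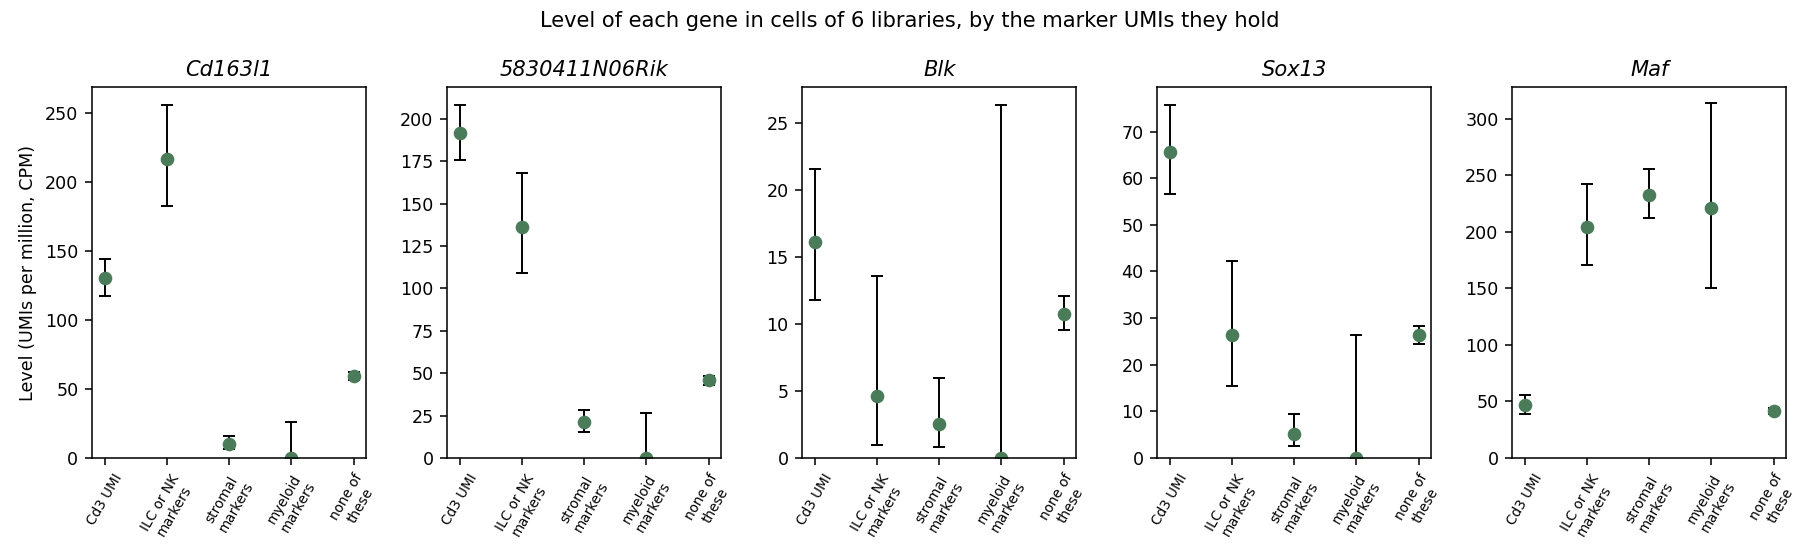
Level of each gene (CPM, linear axis from 0) in cells of the 6 libraries grouped by the marker UMIs they hold, with 95% exact Poisson intervals. The groups may overlap, and none of these means no Cd3 UMI and no marker class. Over the pooled libraries Cd163l1 is highest in cells with innate lymphoid or NK cell markers (217 CPM), 5830411N06Rik and Sox13 in cells with Cd3 (192 and 65.6 CPM), and Maf is at 204 to 233 CPM in the 3 groups with other markers.

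Families of the members were read as listed genes. Among the 8 scavenger receptor genes, which include the pair described above, 5 had at least 20 UMIs in each pair of libraries. Between genotypes 1 was past 2-fold higher in the DN2a and in the DN2b start, which was Cd163l1 both times, and past 2-fold lower were 1, 1 and 2 genes in the DN1, DN2a and DN2b starts. Of all genes, 0.821%, 1.1% and 1.74% were past 2-fold higher and 1.69%, 4% and 3.64% past 2-fold lower in these starts. Cd5, a negative regulator of T cell receptor signals, was at -1.08 (-1.42 to -0.74) in the DN2a start and -0.95 (-1.63 to -0.31) in the DN2b start. Cd6, its relative, was at -1.20 (-2.51 to -0.01) in the DN1 start. In the DN2b start the intervals of Cd6 (-1.33, -3.37 to 0.30) and of Ssc5d (-1.42, -3.45 to 0.20) included 0, at 4 UMIs each in ΔTE. The list's median ratio was -0.43, -0.82 and -0.95 in the DN1, DN2a and DN2b starts.

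Among the 8 Src family kinases, of which 6, 8 and 5 had enough counts in the 3 starts, 0 were past 2-fold between genotypes in any start, and the medians were 0.08, 0.03 and 0.06. Lck, the kinase of T cell receptor signalling, was at -0.18 (-0.37 to 0.01) and Fyn at -0.04 (-0.23 to 0.15) in the DN2b start, beside 0.75 for Blk. Of the 9 SoxD and Maf family genes, Mafa had 0 UMIs, and 0 of those with enough counts were past 2-fold, with medians of -0.10, -0.10 and -0.15. Sox5, the SoxD relative of Sox13, was at 0.30 (0.12 to 0.47), 0.26 (0.14 to 0.38) and -0.38 (-0.61 to -0.16) in the DN1, DN2a and DN2b starts. Mafg, a small Maf protein, was at -0.10, -0.10 and 0.07.

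Of the 21 listed regulators of gamma-delta and innate T cell development, 18, 19 and 18 had enough counts in the DN1, DN2a and DN2b starts. Past 2-fold higher in ΔTE were 2, 3 and 4 of them, beside 0.821%, 1.1% and 1.74% of all genes, and past 2-fold lower 0, 1 and 0, beside 1.69%, 4% and 3.64%. The medians were 0.12, 0.07 and 0.12. Lef1, a partner of beta-catenin, was higher in each start at 1.01, 1.08 and 1.11, and Tox2, an HMG box factor, at 1.35, 1.66 and 1.30. Zbtb16 was at 1.02 and 1.07 in the DN2a and DN2b starts, Id2, an inhibitor of E proteins, at 1.65 in the DN2b start, and Egr1, an immediate early factor, at -1.05 in the DN2a start.

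Of the 14 interleukin-17 effector genes, 9 had at least 20 UMIs over all libraries, and 8, 7 and 8 had enough counts in the 3 starts. Past 2-fold higher in ΔTE were 0, 1 and 3 genes, beside the 0.821%, 1.1% and 1.74% of all genes, and past 2-fold lower 1, 2 and 1, beside 1.69%, 4% and 3.64%. The medians were -0.22, 0.16 and 0.70. In the DN2b start Il18r1, a receptor of interleukin-18, was at 1.74 (1.08 to 2.43), Ccr2, a chemokine receptor, at 1.61 (1.39 to 1.83) and Cxcr6 at 1.73 (0.64 to 2.92), whereas Il17re was at -1.53 (-3.28 to -0.10). Rora, a retinoid-related orphan receptor, was at 0.49 (0.27 to 0.72) in that start.

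Against the Cd3 split, 0 of 9 interleukin-17 effector genes, 0 of 21 regulators and 0 of 8 Src kinases were past 2-fold higher in the pooled cells with Cd3. In the SoxD and Maf family Sox13 was past it at 1.41, and the scavenger receptors had 2 of 6, which were the pair of neighbours. Past 2-fold lower were 2, 1, 2, 0 and 1 genes of these lists in the same order, beside 8.93% of all genes, and the medians were -0.14, 0.10, -0.36, 0.01 and 0.48 beside -0.06 for all genes.

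The genes closest to each member were sought in cells, as those with the highest log2 ratio of CPM between cells with and without a UMI of the member. For Cd163l1 these were Ccr9, a chemokine receptor of thymic progenitors, at 3.50 (3.20 to 3.80), Xcl1 at 3.38, Icos at 3.10, Hlf at 3.05 and Klrk1 at 3.01. For 5830411N06Rik they were Kcnma1 at 3.44, Sh2d1a, an adaptor of SLAM receptors, at 3.39, Ccr9 at 2.56, Cd3d at 2.46 and Tox2 at 2.41. Blk cells led with Lef1 at 2.19, followed by Cd163l1 at 2.02, 5830411N06Rik at 1.85, Mgst2 at 1.79 and Lztfl1 at 1.65. Sox13 cells led with Ccr9 at 1.85, followed by Cd3e at 1.42, Dock9 at 1.36, Cd3d at 1.32 and 5830411N06Rik at 1.28. Maf cells led with C1qb, a complement gene of macrophages, at 4.77, followed by Cxcr6 at 4.30, Icos at 4.01, Hlf at 3.83 and Ikzf3 at 3.76. Icos and Xcl1 are in the innate lymphoid or NK cell list and C1qb in the myeloid list, and cells of all libraries were pooled for these ratios.

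Over the 6 libraries, the genes with the pattern most like each member were found by Pearson's r of log2(CPM + 1) among 9780 genes with at least 200 UMIs. They were Lpxn (0.995), Cd28 (0.995) and Sytl2 (0.993) for Cd163l1, Grap2 (0.998), Rmi2 (0.997) and Hdac9 (0.996) for 5830411N06Rik, Map3k8 (0.999), Rcbtb2 (0.997) and Etv5 (0.996) for Blk, Ets2 (0.998), Pag1 (0.994) and H1f4 (0.993) for Sox13, and Sh2d2a (0.994), Ms4a4b (0.994) and Pld3 (0.993) for Maf. Among the members, r was highest between Cd163l1 and Blk (0.984) and lowest between Blk and Sox13 (0.760). These r values rest on 6 points that share their starting population in pairs, and the closest genes were picked among 9780 for their r.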

How the data were processed

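Single-cell RNA was measured by sci-RNA-seq3 in 6 libraries, 1 for each genotype (WT or ΔTE) and starting population (DN1, DN2a or DN2b). The authors deposited raw counts of UMIs by gene and barcode, unfiltered and not normalized. The submitters' processing notes list the genome build mm9, and the aligner is not given in the sources used here. Coordinates were therefore taken from GENCODE M21 (GRCm38) by Ensembl identifier, which matched 27924 of 28048 genes, and promoters from RefSeq (GRCm38.p6) by symbol.

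The limits of the study's methods were applied, which were a minimum of 200 genes per cell, a maximum of 2000 UMIs, a mitochondrial share of up to 30% and detection of a gene in 15 cells or more. Doublets were limited only by the upper bound on UMIs. UMIs were summed over the cells of a library, well or class and scaled to CPM by the sum over genes used. With 1 library per condition no test was made. Intervals are 95% exact Poisson, conditional binomial (ratios) or Clopper-Pearson (shares) intervals and cover counting error only. Ratios needed at least 20 UMIs in both groups together. The self-test on simulated counts checked the ratios and their intervals.

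The members and lists were chosen with earlier results of these data known. Genes were named if they were members, had at least 20 UMIs on a listed family or program, were among the 5 highest ratios in cells with a member UMI (at least 20 UMIs there), or had the 3 highest Pearson r over libraries. Alternatives changed the filters, the scaling (TMM), the thinning and the cells or wells used. Exceptions to the naming rule and the receptor balance were chosen after values were seen. Some listed genes are not reported here. The planned split on gamma-delta receptor constant genes was not run. Tools were edgeR 4.0.16 in R 4.3.3, BLASTN 2.17.0 and Python 3.11.15 with matplotlib 3.10.9, scipy 1.17.1, pandas 2.3.3 and numpy 2.4.6.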

Additional observations from a re-analysis of the deposited data

Results flagged for a closer look

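Barcodes outside the cell filters also held transcripts of the 5 genes. Barcodes above 2000 UMIs held 125 UMIs of Cd163l1, 127 of 5830411N06Rik, 19 of Blk, 60 of Sox13 and 1137 of Maf over the 6 libraries. Barcodes above 30% mitochondrial UMIs, at most 2000 UMIs in size, held 784 UMIs of Cd163l1, 629 of 5830411N06Rik, 121 of Blk, 232 of Sox13 and 1708 of Maf. They are given because the comparisons above leave these barcodes out and the counts exceed the 3 that a count of 0 allows.

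In the barcodes above 30% mitochondrial UMIs of the DN2b start, Cd163l1 was at 49.0 CPM for WT and 164 CPM for ΔTE, a log2 ratio of 1.75 (1.45 to 2.05). 5830411N06Rik was at 106 and 98.5 CPM there, a ratio of -0.11 (-0.36 to 0.14), Blk at 9.21 and 18.6 CPM, a ratio of 1.02 (0.28 to 1.80), and Maf at 134 and 143 CPM, a ratio of 0.09 (-0.12 to 0.31). Sox13 was at 26.8 and 30.8 CPM there, a ratio of 0.20 (-0.28 to 0.69), against -0.43 in the cells kept. In the DN1 start of these barcodes Maf was at a ratio of 0.42 (0.18 to 0.65), against -0.32 in the cells kept. In barcodes above 2000 UMIs, the ratio of Cd163l1 was -0.32 (-1.31 to 0.71) in the DN2a start and 1.60 (0.89 to 2.35) in the DN2b start. Blk was there the lower one in ΔTE in the DN2a and DN2b starts, unlike in the cells kept. It was at 6.75 CPM for WT and 3.37 CPM for ΔTE in the DN2a start (3 UMIs each). Its DN2b ratio was -2.26 (-7.75 to 0.70), at 7 UMIs in WT and 1 in ΔTE. Its DN1 ratio was 3.22 (-0.11 to 8.85), in the direction of the cells kept, at 1 UMI in WT and 4 in ΔTE. The ratio of 5830411N06Rik was -1.90 (-3.46 to -0.46) in the DN2a start. In these barcodes Maf was at 126 to 255 CPM in each library, against 20.7 to 186 CPM in the cells kept.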

How the results depend on the processing

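No paired analysis was possible because the labels give no replicate numbers and each condition is 1 library. With 1 library per condition nothing here measures the spread between cultures, and sparse counts limit Blk and the DN1 start most. Of 430 comparisons of the 40 ratios with an alternative other than leaving out a well, 389 stayed within the counting interval. Of the others 4 had the opposite sign, each in the DN1 start, and for 3 of these (5830411N06Rik once and Maf at 2 settings) the interval of the value reported included 0. Values are log2 ratios, and the cause of each shift was not tested. Without the mitochondrial limit, ΔTE to WT was 0.92 for Cd163l1, -0.58 for 5830411N06Rik and 0.42 for Maf in the DN2a start, and for Maf 0.052 in the DN1 and 0.48 in the DN2b start. DN2b to DN2a was then 1.14 (Cd163l1), 1.76 (5830411N06Rik) and 0.76 (Sox13) in WT, and 1.63 (Cd163l1), 1.94 (5830411N06Rik) and 0.97 (Maf) in ΔTE. DN2a to DN1 was 0.89 (Sox13) and 0.42 (Maf) in WT and 0.79 (Maf) in ΔTE, and the pooled Cd3 ratio was 1.36 for Cd163l1 and -0.67 for Maf. At most 20% mitochondrial UMIs gave -0.027 for Cd163l1 and 1.54 for 5830411N06Rik between genotypes in the DN1 start, and 0.48 for Maf in the DN2b start. DN2b to DN2a was then 1.88 (Cd163l1), 2.54 (5830411N06Rik), 1.49 (Sox13) and 1.46 (Maf) in WT and 2.44 (5830411N06Rik) in ΔTE, DN2a to DN1 was 4.13 (5830411N06Rik) in WT and 3.27 (Cd163l1) and 2.41 (5830411N06Rik) in ΔTE, and the pooled Cd3 ratio of 5830411N06Rik was 1.76. Without stromal-marker cells Maf was 0.82 between genotypes in the DN2a start, 0.49 from DN1 to DN2a and 1.64 from DN2a to DN2b in WT, and 1.81 from DN2a to DN2b in ΔTE. Without cells of any marker class or Cd3 UMI, an alternative added after seeing the data, Maf was 0.066 in the DN1 and 0.76 in the DN2a start. With at least 300 genes per cell Maf was 1.46 from DN1 to DN2a in WT, and TMM scaling gave 2.34 for 5830411N06Rik from DN2a to DN2b in WT. Expected values from the same libraries, also added later, gave Cd3 ratios of 0.38 (Cd163l1), 1.07 (5830411N06Rik), 0.17 (Blk), 0.91 (Sox13) and -0.88 (Maf). Leaving out 1 well at a time moved 3 of 300 values outside their interval, each without well 1 of the ΔTE DN2a library. Between genotypes in the DN2a start, 5830411N06Rik ranged from -0.60 to -0.17 and Sox13 from -0.69 to -0.24, and 5830411N06Rik from DN2a to DN2b in ΔTE ranged from 2.06 to 2.48.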
